A study of Rattus norvegicus with 2 samples.

Results

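The transcripts described here are 1245 rows without a gene name whose level was higher in H9c2 cells transfected with a plasmid for Cacnb4 than in H9c2 cells transfected with an empty vector. H9c2 is a rat myoblast line (strain BD1X, from heart muscle), and Cacnb4 is the beta4 subunit, 1 of the accessory proteins of high-voltage-activated calcium channels. The study holds 2 libraries of total RNA, 1 from cells that received the Cacnb4 plasmid and 1 from cells that received the empty vector, and the title names antiviral factors as its subject. The rows were selected on the contrast itself. A row was taken where it had no gene name, its locus was longer than 120 bases, its level in the Cacnb4 library was 5 FPKM (fragments per kilobase of transcript, scaled to the library's mapped reads) or more, and log2((Cacnb4 + 1)/(empty vector + 1)) was 1 or more. Of the 32767 transcripts in the deposited table, 13533 had no gene name, and 10032 of these were over 120 bases and at 5 FPKM or more with Cacnb4. The 1245 were therefore 12.4% of the unnamed rows that could have been taken. Members lying within 100 kb of each other on a chromosome were joined, which gave 678 groups. With 1 library per condition no fold change has a replicate check, and none is tested here.

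Cells that sense viral nucleic acid or interferon switch on a set of interferon-induced genes. Signalling through the type I interferon receptor forms the transcription factor ISGF3, which binds an interferon-stimulated response element (ISRE), while genes that respond to interferon gamma often carry a gamma-activated site (GAS). Many of the proteins made belong to families of antiviral effectors, among them the guanylate-binding proteins (Gbp), the IFIT proteins, the ADP-ribosyltransferases Parp10 and Parp12, and the immunity-related GTPases. Several such families lie in tandem arrays in rodent genomes.

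Because the members have no gene name, the genes around them were read from 2 sources. The nearest named transcript on each side came from the deposited table, which uses the rat build rn4. RefSeq (GRCr8) then gave the genes that lie between the same pair of flanking genes, by gene order only, since the builds differ. A RefSeq gene that lies between the flanks is not shown to be the transcript measured. A pair of gene lists, 139 symbols of interferon-induced genes and 45 of antigen presentation, was compared with the neighbours. Of the 184 listed genes, 20 lay between the flanks of a group, and 19 of these had no row under that symbol in the deposited table. The flanks are the nearest named transcripts, so a gene between them would seldom have a named row. The count of 19 therefore follows largely from how flanks were chosen.

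Promoters of some of these RefSeq genes are shown, since their letters do not depend on the expression values. Which genes came up does depend on those values, through the groups and the lists. RefSeq promoter windows (GRCr8) run from 250 bases before to 50 bases after the start of the gene. Each was searched on both strands for the ISRE core (GAAA, any 2 bases, GAAA), with overlapping matches counted. The sequences below run 5′ to 3′ on the strand of the gene, with matches to the ISRE core in capitals, so that a match on the opposite strand starts and ends with TTTC. Gbp7 and Gbp4 lie between the flanks of the group with 14 members, Parp12, Pml and Rnf213 between those of groups with 10, 10 and 47 members, Xaf1 of a group with 7, and Samd9 of a group with 4 and of a group with 2.
Gbp7, chr2:233948639-233948938, plus strand: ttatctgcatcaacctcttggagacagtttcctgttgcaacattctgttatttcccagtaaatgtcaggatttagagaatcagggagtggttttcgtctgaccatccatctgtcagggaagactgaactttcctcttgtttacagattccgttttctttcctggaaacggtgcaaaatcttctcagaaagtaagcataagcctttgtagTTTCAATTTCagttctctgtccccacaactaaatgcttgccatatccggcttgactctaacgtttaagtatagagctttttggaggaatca
Gbp4, chr2:233978236-233978535, plus strand: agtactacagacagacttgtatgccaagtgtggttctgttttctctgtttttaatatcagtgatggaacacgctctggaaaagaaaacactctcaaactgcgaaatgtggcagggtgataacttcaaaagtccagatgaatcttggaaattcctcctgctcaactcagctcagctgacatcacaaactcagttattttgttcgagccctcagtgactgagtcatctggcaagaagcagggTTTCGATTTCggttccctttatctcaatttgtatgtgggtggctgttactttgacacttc
Parp12, chr4:68850492-68850791, minus strand: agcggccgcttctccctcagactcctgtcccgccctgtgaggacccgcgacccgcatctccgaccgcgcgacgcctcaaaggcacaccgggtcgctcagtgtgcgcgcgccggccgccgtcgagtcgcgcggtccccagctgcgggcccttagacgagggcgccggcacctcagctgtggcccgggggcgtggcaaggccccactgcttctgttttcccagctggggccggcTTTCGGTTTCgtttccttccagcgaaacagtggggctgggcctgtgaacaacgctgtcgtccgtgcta
Pml, chr8:67554839-67555138, minus strand: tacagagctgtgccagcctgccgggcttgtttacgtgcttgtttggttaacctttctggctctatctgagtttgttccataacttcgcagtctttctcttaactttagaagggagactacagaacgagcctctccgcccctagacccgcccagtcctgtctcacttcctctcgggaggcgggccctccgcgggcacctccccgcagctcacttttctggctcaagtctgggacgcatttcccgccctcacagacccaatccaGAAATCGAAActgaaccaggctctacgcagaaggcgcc
Xaf1, chr10:57415685-57415984, plus strand: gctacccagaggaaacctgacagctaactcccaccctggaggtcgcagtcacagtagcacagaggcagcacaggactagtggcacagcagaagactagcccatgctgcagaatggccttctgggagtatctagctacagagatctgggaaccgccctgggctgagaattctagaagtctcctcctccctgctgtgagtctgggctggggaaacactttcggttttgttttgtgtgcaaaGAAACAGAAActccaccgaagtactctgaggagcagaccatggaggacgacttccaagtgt
Samd9, chr4:32138909-32139208, minus strand: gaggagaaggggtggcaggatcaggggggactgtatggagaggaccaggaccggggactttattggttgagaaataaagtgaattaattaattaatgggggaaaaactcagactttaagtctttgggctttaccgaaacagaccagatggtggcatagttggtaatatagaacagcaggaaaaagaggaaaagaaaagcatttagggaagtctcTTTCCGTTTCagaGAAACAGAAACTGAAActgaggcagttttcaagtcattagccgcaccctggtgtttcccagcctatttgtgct
Rnf213, chr10:105154735-105155034, plus strand: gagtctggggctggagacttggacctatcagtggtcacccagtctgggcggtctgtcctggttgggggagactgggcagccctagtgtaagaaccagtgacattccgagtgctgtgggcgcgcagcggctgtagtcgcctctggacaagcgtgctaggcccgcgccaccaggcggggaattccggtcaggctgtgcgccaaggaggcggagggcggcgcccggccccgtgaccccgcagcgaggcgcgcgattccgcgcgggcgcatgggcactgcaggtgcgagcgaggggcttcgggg
Measured from the start of the gene, the first base of the match was at -41 in Gbp7, -10 in Gbp4, -18 in Parp12, 13 in Pml and -11 in Xaf1. In Samd9 there were 3 matches, at -36, -23 and -17, of which the last pair overlap. The Rnf213 window held no match, which says only that these letters are not in this window. Of the 20 listed genes between flanks, 18 had a promoter entry and 10 of the 18 held the ISRE core. The windows of Helz2, Xrn1, Aim2, N4bp1, Parp11, Mlkl and Gbp6, not printed here, held no match. The core was found in 3.92% of all 33469 RefSeq promoters, in at least 1 promoter of 1131 of all 27457 genes, in 49 of 123 other listed genes, and in 0 of 17 unlisted coding genes between the flanks of the 10 largest groups. The GAS letters (TTC, any 3 bases, GAA) were found in 4 of the 18, in 3 of the same 17 unlisted genes and in at least 1 promoter of 9.39% of all genes. A match is a description of the letters, not a site at which a factor was measured.

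The Cacnb4 library had 16925364 raw reads and 14939784 mappable reads, and the empty vector library 15258174 and 13569897. Cacnb4 itself was listed at 6266 FPKM with the Cacnb4 plasmid and 4.37 FPKM with empty vector, and plasmid and endogenous transcripts cannot be told apart. Of the markers of muscle and heart that were looked at, Myod1, a transcription factor of myoblasts, had 101 FPKM with Cacnb4 and 89.8 FPKM with empty vector. The sarcomere genes Actc1 and Tnnt2 had 192 and 309 FPKM with Cacnb4, against 225 and 214 FPKM with empty vector. The muscle genes Myog and Des had 71.9 and 6.02 FPKM with Cacnb4, against 51.3 and 7.55 FPKM with empty vector. Myh6 and Nkx2-5, which mark working heart muscle and cardiac progenitors, were below 1 FPKM in both libraries. The mesenchymal markers Vim and Col1a1 had 2609 and 2254 FPKM with Cacnb4, against 2821 and 1450 FPKM with empty vector. The immune cell markers Ptprc, Cd68 and Itgam had 0.0846, 0.70 and 0.109 FPKM with Cacnb4, and 0.0191, 0.381 and 0.0550 FPKM with empty vector. In bulk RNA, a change in the number of cells that make a transcript and a change in the amount per cell cannot be told apart.

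Among named transcripts under the same size rule, 174 of 7967 (2.18%) were higher with Cacnb4 and 78 of 7918 (0.985%) were lower. Of the named transcripts of the interferon-induced list that reached the minimum, 66 of 89 were past 2-fold higher and 0 of 62 past 2-fold lower. For the antigen presentation list the counts were 26 of 32 and 0 of 14. Median log2 ratios were 1.88 and 1.75 for these lists, and -0.02 over all named transcripts at the minimum. The lists were written with earlier results of these data known, so their direction is no independent evidence.

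The unnamed transcripts were short and rested on few reads. Their length ran from 121 to 5030 bases with a median of 200, and 46 of the 1245 were over 600 bases. Their level with Cacnb4 had a lowest value of 5.01, a median of 42.3 and a highest value of 1464 FPKM, against 0, 11.02 and 607 FPKM with empty vector. FPKM values of short transcripts are coarse. Worked back from the steps between values, 1 read was worth 13.6 FPKM at 121 bases, 2.56 FPKM at 200 bases and 0.0984 FPKM at 1000 bases in the Cacnb4 library, and 14.6, 2.75 and 0.106 FPKM in the empty vector library. Under these steps 1194 of the 1245 members (95.9%) came to whole reads, within 0.02 of a read, in both libraries. The median member had 15 reads with Cacnb4 and 4 reads with empty vector. With Cacnb4, 1242 of the 1245 members had 10 or more reads, as did 8119 of the 8787 other unnamed rows at the same minimum. A row with few reads was thus a member almost only where it had 10 or more in the Cacnb4 library.

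**Figure D1:**
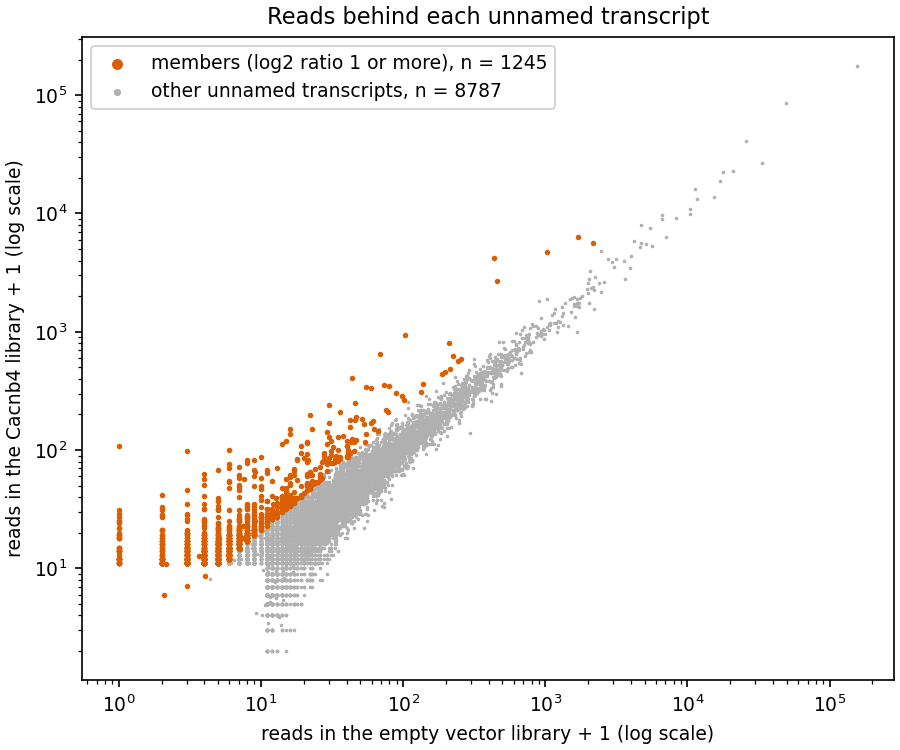
Reads worked back from FPKM for the 10032 unnamed transcripts over 120 bases and at 5 FPKM or more with Cacnb4, with the Cacnb4 library on the y axis and the empty vector library on the x axis, both as reads + 1 on log scales. Each point is 1 transcript; the 1245 members (orange) form the upper edge of the cloud, most of them below 100 reads, and 5 members stand above 1000 reads.

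Read numbers divide the members unevenly. In the Cacnb4 library 832 members (66.8%) had under 20 reads, while 413 had 20 or more, 164 had 50 or more, 66 had 100 or more and 5 had 1000 or more. The empty vector value was listed at 0 for 44 members. The mirror of the rule, 5 FPKM or more with empty vector and a log2 ratio of -1 or less, took 663 of 9800 unnamed rows (6.77%). Of these lower rows 660 had 10 or more reads in the empty vector library. There 128 had 20 or more, 13 had 50 or more and 2 had 100 or more. Higher rows thus outnumbered lower rows 1245 to 663 in all, and 66 to 2 among rows with 100 or more reads in the library where they were high. Beside the 66, another 1343 unnamed rows at the same minimum had 100 or more reads with Cacnb4 without passing the rule. Several rows may be pieces of 1 transcript, so these are not counts of genes.

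Rows on the 2 sides of the threshold had similar read numbers. The 5 members just inside had 10, 39, 21, 26 and 11 reads with Cacnb4, against 4, 18, 9, 12 and 5 reads with empty vector. The 5 unnamed rows just outside had 17, 17, 22, 59 and 14 reads with Cacnb4, against 7, 7, 10, 27 and 6 reads with empty vector.

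The authors' deposited table marks 0.696% of all 32767 rows as significant. How that test works was not given in the sources used here. With 1 library per condition, it compares these 2 libraries and not the conditions. Of the 1245 members, 112 (9.0%) carry the mark in the authors' deposited table, and of the 663 lower rows 0 do. Marked members in the authors' deposited table had a median of 82.5 reads with Cacnb4 and none had fewer than 21, while unmarked members had a median of 14. The mark and the selection used the same contrast, so these counts are a description. Depth alone did not bring the mark: of the 15 members with 400 or more reads with Cacnb4, 9 are marked in the authors' deposited table and 6 are not. Log2 ratios ran from 1.32 to 3.03 for the 9 and from 1.03 to 1.26 for the 6. Among those 6 is the member with the second most reads, of 3838 bases, which was named after its values were seen (rn4, chr6:36896496-36900334). It had 121 FPKM (5608 reads) with Cacnb4 and 50.2 FPKM (2154 reads) with empty vector, with a q of 0.577 in the authors' deposited table. Its values did not come to whole reads, so these reads are estimates. The authors' deposited table marks 129 unnamed rows in all, 127 of them higher with Cacnb4. Of these 129, 17 are not members, and 15 of the 17 were 120 bases or less.

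Position on the chromosome was not used to choose the members. Of the 678 groups, 474 held 1 member, 106 held 2, 38 held 3 and 60 held 4 or more. The 60 held 445 members (35.7%), and 12 groups of 10 or more held 204 (16.4%). The 663 lower rows gave 524 groups, of which 10 held 4 or more, with 43 rows (6.49%), and 0 held 10 or more. The largest group of higher rows had 47 members and the largest of lower rows had 6. With 1245 higher rows against 663 lower rows, joining within a fixed distance gives larger groups among the higher rows in part through their number. In 34 of the 60 groups every unnamed row over 120 bases within the span was higher with Cacnb4, and 15 of the 60 contained members only. Spans begin and end at members, and members are among the rows counted, so these counts follow in part from the selection. Over all unnamed rows at the minimum, members included, the median log2 ratio was 0.113. Rows within a group may be pieces of 1 transcript, so they are not independent.

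**Figure D2:**
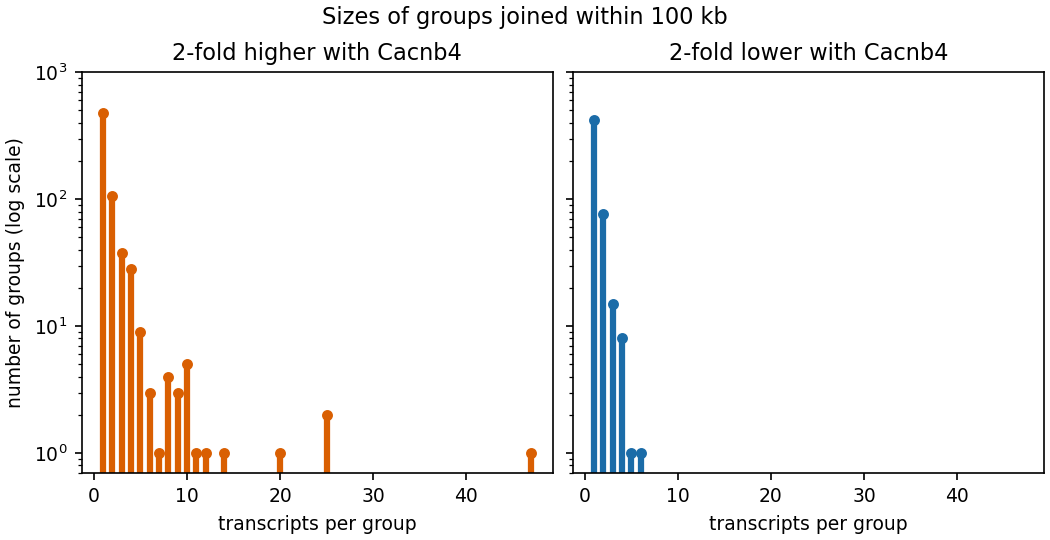
Number of groups (y axis, log scale) by the number of transcripts per group (x axis), for unnamed transcripts past 2-fold higher with Cacnb4 (left) and past 2-fold lower (right), joined within 100 kb. Higher transcripts form 12 groups of 10 or more, up to 47, while the largest group of lower transcripts holds 6.

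A listed gene was the nearest named gene of 15 groups, or overlapped them, and lay between the flanks in RefSeq for 18. Either held for 28 of the 678 groups (4.13%), against 7 of the 524 groups of lower rows (1.34%). Since the lists were written with earlier results of these data known, this difference is no independent evidence. These 28 groups held 180 members. Of the 112 members marked in the authors' deposited table, 80 were in these 28 groups and 32 in the other 650. Counted by group, 15 of the 28 (53.6%) had a marked member in the authors' deposited table, as did 15 of the other 650 (2.31%). Group size differed, since 16 of the 28 held 4 or more members, against 60 of all 678. A larger group has more members that could carry the mark. Flanks could be matched to RefSeq for 571 groups. Members lay a median of 28.3 kb from the nearest named transcript, and other unnamed rows 22.4 kb. That nearest named transcript was itself past 2-fold higher, at 5 FPKM or more, for 54 members (4.34%) and for 78 other unnamed rows (0.888%). Rows that lie close together can share 1 such transcript, so these are not counts of independent rows or of neighbouring genes.

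The group with the most members lay on chromosome 10 between Rbfox3, a neuronal splicing factor, and Nptx1, a neuronal pentraxin (rn4, chr10:108781676-108862926). Its 47 members were all of the unnamed rows over 120 bases in this span of 81.3 kb. Member levels had a lowest value of 5.81, a median of 96.1 and a highest value of 744 FPKM with Cacnb4, against 0, 6.09 and 85.0 FPKM with empty vector. Summed, they held 3680 reads with Cacnb4 and 378 reads with empty vector, a ratio of 9.04 after scaling to depth (95% exact binomial interval 8.13 to 10.1). Such intervals cover counting error only, and since members were chosen for being high the ratios lean high. The member with the highest level, 178 bases long, had 744 FPKM (198 reads) with Cacnb4 and 85.0 FPKM (21 reads) with empty vector. The longest, of 3594 bases, had 646 reads with Cacnb4 and 68 with empty vector, and the most reads were on a member of 1832 bases, 935 with Cacnb4 and 102 with empty vector. The authors' deposited table marks 24 of the 47, with q listed at 0 for these last 2 members. For 8 members the empty vector value was listed at 0. The highest log2 ratio, 7.18, belongs to a member with 18 reads with Cacnb4 and a value listed at 0 with empty vector. It was 5.57-fold higher when 3 reads are taken as the floor of the empty vector library. With counting error, the lower end of its 95% interval was 4.08.

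Between Rbfox3 and Nptx1, RefSeq lists 13 coding genes. Rnf213, a large ubiquitin ligase with ATPase domains that interferon induces, is the only one of the lists. Its neighbours in that order are Slc26a11, an anion transporter, and Endov, an endonuclease that acts on deaminated nucleic acid. The others include the Polycomb proteins Cbx2 and Cbx8, the lysosomal enzymes Gaa and Sgsh, and Eif4a3, a helicase of the exon junction complex. The group lies 265 kb from Rbfox3 and 55.7 kb from Nptx1, and both flanking genes were below 0.1 FPKM in both libraries.

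**Figure D3:**
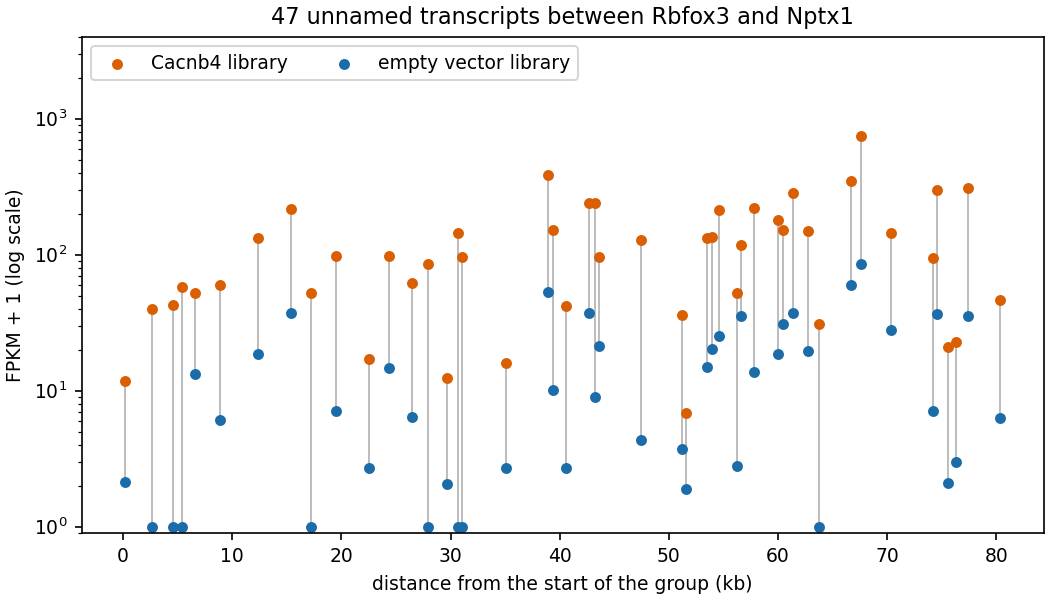
Levels of the 47 unnamed transcripts between Rbfox3 and Nptx1, with FPKM + 1 on a log y axis and the distance from the start of the group in kb on the x axis. Orange points are the Cacnb4 library and blue points the empty vector library, joined by a line per transcript; the gap between the points runs across the whole span, and 8 transcripts are listed at 0 with empty vector.

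Guanylate-binding proteins are interferon-induced GTPases that attack the membranes of intracellular pathogens. A group of 14 members on chromosome 2 (rn4, chr2:240470396-240509351) lay between Gbp5 and Gbp2, where RefSeq places Gbp7 and Gbp4. The flanking genes are themselves of the family: Gbp2 had 103 FPKM with Cacnb4 and 19.6 FPKM with empty vector, and Gbp5 had 3.20 FPKM with Cacnb4 and 0.631 FPKM with empty vector. All 14 unnamed rows over 120 bases in the span were members. Their reads summed to 781 with Cacnb4 and 84 with empty vector, a scaled ratio of 8.63 (6.89 to 10.9). Log2 ratios ran from 2.06 to 6.27 with a median of 3.25. Levels ran from 21.9 to 539 FPKM with Cacnb4 and from 0 to 94.9 FPKM with empty vector. The best-covered member, of 705 bases, had 150 reads with Cacnb4 and 22 with empty vector. Of the 14 members, 10 are marked in the authors' deposited table. For 3 of the 14 the values did not come to whole reads, and members of this family are similar in sequence, so reads may be divided between copies.

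A further group of 4 members lay past Gbp2, between Gbp2 and Kat3 (rn4, chr2:240715432-240739751), where RefSeq places Gbp1 and Gbp3. Its members summed to 73.6 reads with Cacnb4 and 3 reads with empty vector. At that depth the scaled ratio of 22.9 has an interval of 7.54 to 114. Only 1 of the 4 is marked in the authors' deposited table, a member of 253 bases with 24 reads with Cacnb4 that was listed at 0 with empty vector.

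For both ADP-ribosyltransferases named above, the flanking genes enclosed a group of 10 members. Parp10 is the only RefSeq gene between Plec, which encodes the cytoskeletal linker plectin, and Grina. The group there spanned 9.25 kb (rn4, chr7:114264007-114273256), and its 10 members were all of the unnamed rows over 120 bases within it. Reads summed to 1140 with Cacnb4 and 144 with empty vector, a scaled ratio of 7.35 (6.18 to 8.80). The longest member, of 1536 bases, had 23.7 FPKM (403 reads) with Cacnb4 and 2.73 FPKM (43 reads) with empty vector. Log2 ratios ran from 1.41 to 3.40, and 8 of the 10 are marked in the authors' deposited table. The flanking genes differed less. Plec had 61.0 FPKM with Cacnb4 and 55.0 FPKM with empty vector, and Grina had 165 FPKM with Cacnb4 and 161 FPKM with empty vector.

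Parp12 lies with Kdm7a, a histone demethylase, Chmp4bl1 and Slc37a3 between Tbxas1, the thromboxane synthase, and Rab19. The group began 3.71 kb from Tbxas1 (rn4, chr4:66681252-66727378) and held the most reads of the 10 largest, 7442 with Cacnb4 and 1932 with empty vector, a scaled ratio of 3.58 (3.40 to 3.76). A member of 4310 bases carried 6377 of these reads (122 FPKM) with Cacnb4 and 1691 (34.8 FPKM) with empty vector. Its values did not come to whole reads, so most reads of this group, and its interval, rest on estimates. The other 9 members were 131 to 459 bases long, and the highest of them had 1458 FPKM (178 reads) with Cacnb4 and 362 FPKM (41 reads) with empty vector. The authors' deposited table marks 7 of the 10.

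Helz2, an interferon-induced helicase that also serves as a nuclear receptor coactivator, is the only coding gene in RefSeq between RGD1564340 (Fndc11 in RefSeq) and Gmeb2. The 11 members there (rn4, chr3:170369079-170381883) were again all of the unnamed rows over 120 bases in the span. They summed to 361 reads with Cacnb4 and 59 reads with empty vector, a scaled ratio of 5.68 (4.30 to 7.61). The member with the highest level had 106 FPKM (13 reads) with Cacnb4 and 44.1 FPKM (5 reads) with empty vector, and its ratio has an interval of 0.808 to 8.65, which includes 1. A member of 1252 bases had 6.36 FPKM (85 reads) with Cacnb4 and 1.53 FPKM (19 reads) with empty vector, and it is 1 of 4 marked in the authors' deposited table. Level and depth therefore ranked these members differently.

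Pml organises the nuclear bodies that bear its name. It lies with Islr, Islr2 and Stoml1 between Stra6 and Loxl1, where a group of 10 members among 12 unnamed rows over 120 bases was found (rn4, chr8:62020341-62055903). The members had 1601 reads with Cacnb4 and 596 with empty vector, a scaled ratio of 2.49 (2.27 to 2.74), and all 12 rows together gave 2.46 (2.24 to 2.71). Levels of the members ran from 28.5 to 474 FPKM with Cacnb4 and from 5.89 to 203 FPKM with empty vector. The mark of the authors' deposited table is on 2 of the 10.

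The remaining 4 of the 10 groups with most members had no listed gene next to them or between their flanks. With 25 members among 50 unnamed rows over 120 bases, the group between LOC690206 and Usp48, a deubiquitinase, had 1324 reads with Cacnb4 and 478 with empty vector (rn4, chr5:156226975-156307942). Its scaled ratio was 2.57 (2.31 to 2.86), and over all 50 rows 1.96 (1.83 to 2.09). LOC690206 did not match RefSeq. With the next named gene that did, Cela3b, as the flank, 1700013G24Rikl, Hspg2 and Ldlrad2 lay between, of which Hspg2 encodes the basement membrane proteoglycan perlecan. Only 2 of the 25 are marked in the authors' deposited table.

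Ascc3, a helicase that helps to clear stalled ribosomes, is the only coding gene in RefSeq between Grik2, a kainate receptor, and Sim1. The 25 members there spread over 255 kb (rn4, chr20:54614302-54869428), and all 32 unnamed rows over 120 bases in the span were higher with Cacnb4. The members had 1558 reads with Cacnb4 and 526 with empty vector, a scaled ratio of 2.75 (2.49 to 3.04), and the 32 rows gave 2.41 (2.21 to 2.62). Log2 ratios were narrow, from 1.07 to 2.01, and 4 of the 25 are marked in the authors' deposited table.

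The group of 20 members between RGD1311703 (C1h11orf58 in RefSeq) and Plekha7 had no RefSeq gene between its flanks (rn4, chr1:174203830-174241948). It lay 7.07 kb from Plekha7, a protein of adherens junctions, which was itself at 46.3 FPKM with Cacnb4 and 19.7 FPKM with empty vector. RGD1311703 had 45.5 FPKM with Cacnb4 and 43.0 FPKM with empty vector. The 20 members were all of the unnamed rows over 120 bases in the span and had 2617 reads with Cacnb4 and 933 with empty vector, a scaled ratio of 2.60 (2.42 to 2.81). The highest, of 140 bases, had 1459 FPKM (174 reads) with Cacnb4 and 542 FPKM (60 reads) with empty vector. Marks in the authors' deposited table cover 7 of the 20.

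A group of 12 members among 29 unnamed rows over 120 bases lay between Ccdc92 and Atp6v0a2, a subunit of the vacuolar proton pump, where RefSeq places Dnah10, an axonemal dynein heavy chain (rn4, chr12:32931821-33046240). It had the fewest reads of the 10, 158 with Cacnb4 and 43 with empty vector. The scaled ratio of the members was 3.41 (2.42 to 4.90), and that of all 29 rows was 1.60 (1.36 to 1.88). In this span 23 of the 29 rows were higher with Cacnb4, the 12 members among them. None of the 12 is marked in the authors' deposited table.

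**Figure D4:**
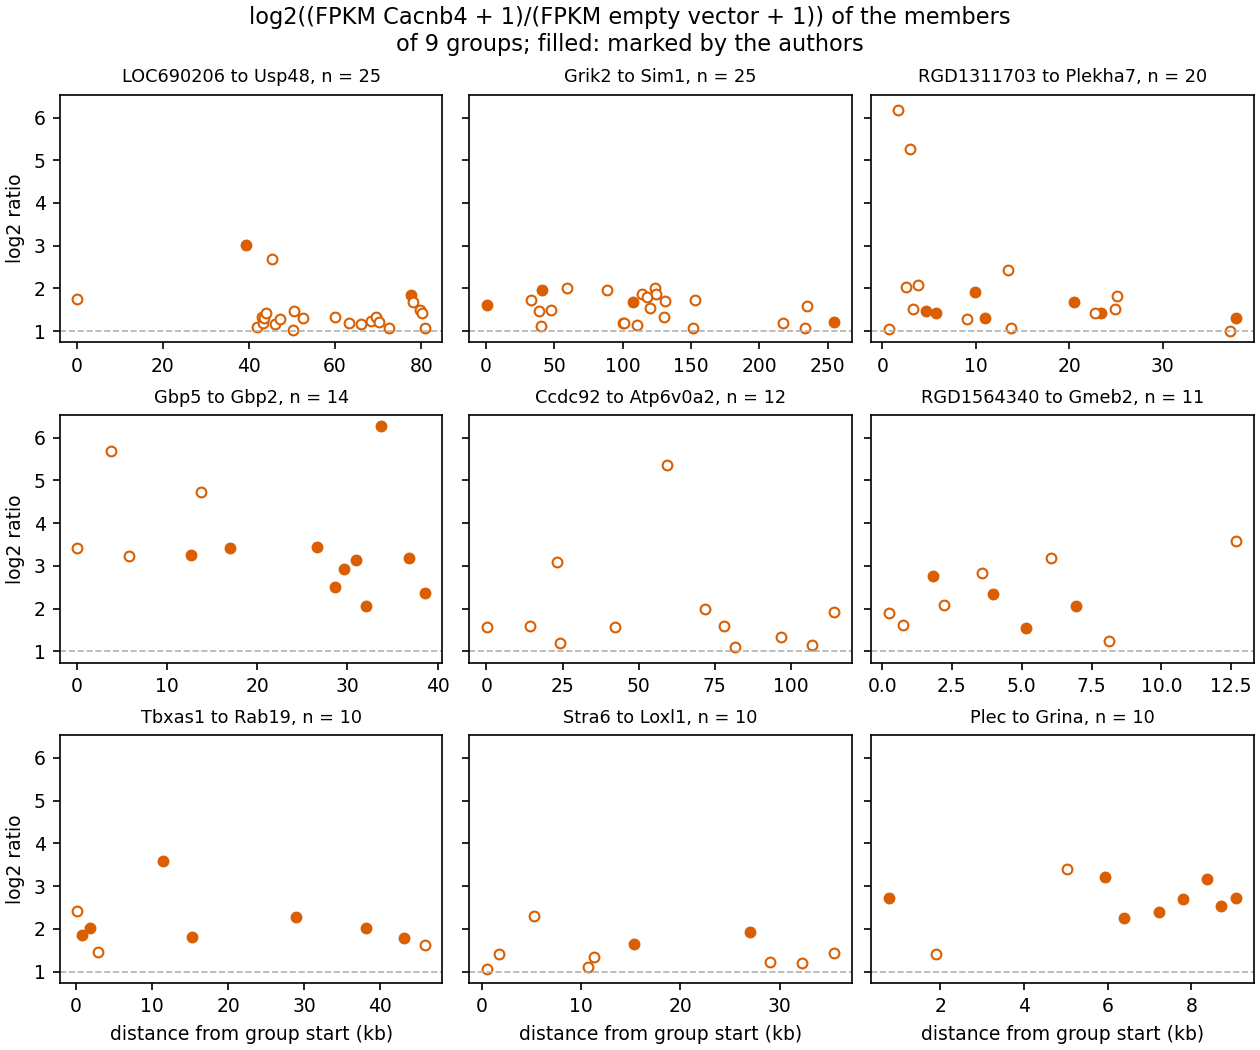
Log2((Cacnb4 FPKM + 1)/(empty vector FPKM + 1)) of each member (y axis) by its distance from the start of the group in kb (x axis), for the other 9 of the 10 groups with most members. Filled points are marked in the authors' deposited table, and the dashed line is the threshold of 1 used to choose members; the group between Gbp5 and Gbp2 lies above 2 throughout, and that between Grik2 and Sim1 between 1.07 and 2.01.

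Other groups with a listed gene, of 10 members or fewer, are given here after their values were seen. Samd9 and its relatives, which restrict poxviruses, lie between Cdk6 and Hepacam2, and 2 groups fell in that interval on chromosome 4. The group of 2 members (rn4, chr4:27975950-27996061) held a transcript of 4995 bases with 69.5 FPKM (4235 reads) with Cacnb4 and 7.65 FPKM (433 reads) with empty vector. The group of 4 members (rn4, chr4:28158868-28192542) held a transcript of 5030 bases, the longest of all members, with 77.1 FPKM (4733 reads) with Cacnb4 and 17.9 FPKM (1022 reads) with empty vector. Its ratio was 4.30 (4.02 to 4.60), below the 9.08 (8.22 to 10.05) of the other long transcript. In RefSeq Samd9, Samd9l1 and Samd9l2 lie between these flanks. Neither long transcript came to whole reads.

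Xaf1, an interferon-induced partner of the apoptosis inhibitor XIAP, is the only coding gene in RefSeq between Slc13a5 and Fbxo39. The 7 members there (rn4, chr10:59184914-59197006) had 1018 reads with Cacnb4 and 176 with empty vector, a scaled ratio of 5.37 (4.57 to 6.34), and 6 of the 7 are marked in the authors' deposited table. The highest, of 143 bases, had 922 FPKM (118 reads) with Cacnb4 and 118 FPKM (14 reads) with empty vector. Fbxo39, 3.06 kb away, had 1.07 FPKM with Cacnb4 and 0.122 FPKM with empty vector.

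Igtp and Irgm2 are immunity-related GTPases. A group of 10 members over 176 kb, tied in size with the last 3 of the 10 above, lay between Hand1 and Zfp692 (rn4, chr10:43678817-43854569). It overlapped the named Igtp, and RefSeq places Irgm2 in the same interval. Its reads summed to 3469 with Cacnb4 and 578 with empty vector, a scaled ratio of 5.57 (5.10 to 6.10). Most were on a member of 2707 bases, at 85.0 FPKM with Cacnb4 and 15.3 FPKM with empty vector, whose values did not come to whole reads. A member of 1159 bases had 108 reads with Cacnb4 and was listed at 0 with empty vector, the most reads of any member so listed.

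Aim2, a sensor of cytosolic DNA, and Ifi214 lie between Cadm3 and Ifi204. The 4 members there (rn4, chr13:89645773-89659202) had 208 reads with Cacnb4 and 11 reads with empty vector, a scaled ratio of 17.6 (9.61 to 35.7), and all 4 are marked in the authors' deposited table. Between Ifit3 and Ifit1, which encode proteins that bind viral RNA, 4 members (rn4, chr1:238579992-238607386) had 119 reads with Cacnb4 and 14.1 with empty vector. The scaled ratio was 7.89 (4.52 to 14.9). Ifit3 had 428 FPKM with Cacnb4 and 22.3 FPKM with empty vector, and Ifit1 had 290 FPKM with Cacnb4 and 26.2 FPKM with empty vector. The members, at 6.30 to 77.0 FPKM with Cacnb4 and 0.349 to 8.73 FPKM with empty vector, were below both flanks in each library. Beside Apol9a, an apolipoprotein L gene with 229 FPKM with Cacnb4 and 48.2 FPKM with empty vector, 3 members (rn4, chr7:115461891-115467509) had 934 reads with Cacnb4 and 240 with empty vector. Beside Trim5, a restriction factor of retroviruses, 4 members (rn4, chr1:162173632-162189827) had 84 reads with Cacnb4 and 5 with empty vector.

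The other 13 of the 28 groups with a listed gene had no member marked in the authors' deposited table. The group that overlapped Ppm1k, a mitochondrial phosphatase, held 9 members (rn4, chr4:87279245-87392649) with 159 reads with Cacnb4 and 12 with empty vector, a scaled ratio of 12.3 (6.85 to 24.3). Beside Zc3hav1, the zinc finger antiviral protein, 3 members (rn4, chr4:65850057-65851523) had 281 reads with Cacnb4 and 104 with empty vector, a scaled ratio of 2.51 (1.996 to 3.17). N4bp1, which restricts some viral RNAs, lies between the flanks of a group of 2 members (rn4, chr19:21588006-21600948) with 447 reads with Cacnb4 and 187 with empty vector. Groups of 1 member rested on far fewer reads. The member beside Isg15, a ubiquitin-like modifier induced by interferon, had 22 reads with Cacnb4 and 5 with empty vector, and that beside Samhd1, a dNTP hydrolase, had 18 with Cacnb4 and 4 with empty vector. The members beside Irgm and between Slfn13 and Slfn2 had ratio intervals that include 1, of 0.731 to 8.07 and 0.757 to 10.99.

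Another 15 groups had a member marked in the authors' deposited table but no listed gene next to them or between their flanks. They include the groups between LOC690206 and Usp48, Grik2 and Sim1, and RGD1311703 and Plekha7 described above. Of the remaining 12, 3 lay on chromosome 2 between Zfp131 and Ccdc152, where RefSeq places Selenop, which encodes a selenium transport protein, and Zfp131l1. The 4 members of the first of these (rn4, chr2:52042996-52107281) had 893 reads with Cacnb4 and 173 with empty vector, a scaled ratio of 4.79 (4.07 to 5.67), and all 4 are marked in the authors' deposited table. The other 2 groups held 3 and 2 members, each with about 107 reads with Cacnb4 and a scaled ratio of 4.97. Of the 9 members in these groups, 5 did not come to whole reads. Tnfsf4 and Faslg, which encode ligands of the tumour necrosis factor family, flank a group of 4 members (rn4, chr13:77134738-77147253) with 88 reads with Cacnb4 and 13 with empty vector, a scaled ratio of 6.28 (3.49 to 12.3). Lowest among the marked groups was that between Lbp and Snhg11, at 2.28 (2.04 to 2.55) from 1067 reads with Cacnb4 and 435 with empty vector.

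**Figure D5:**
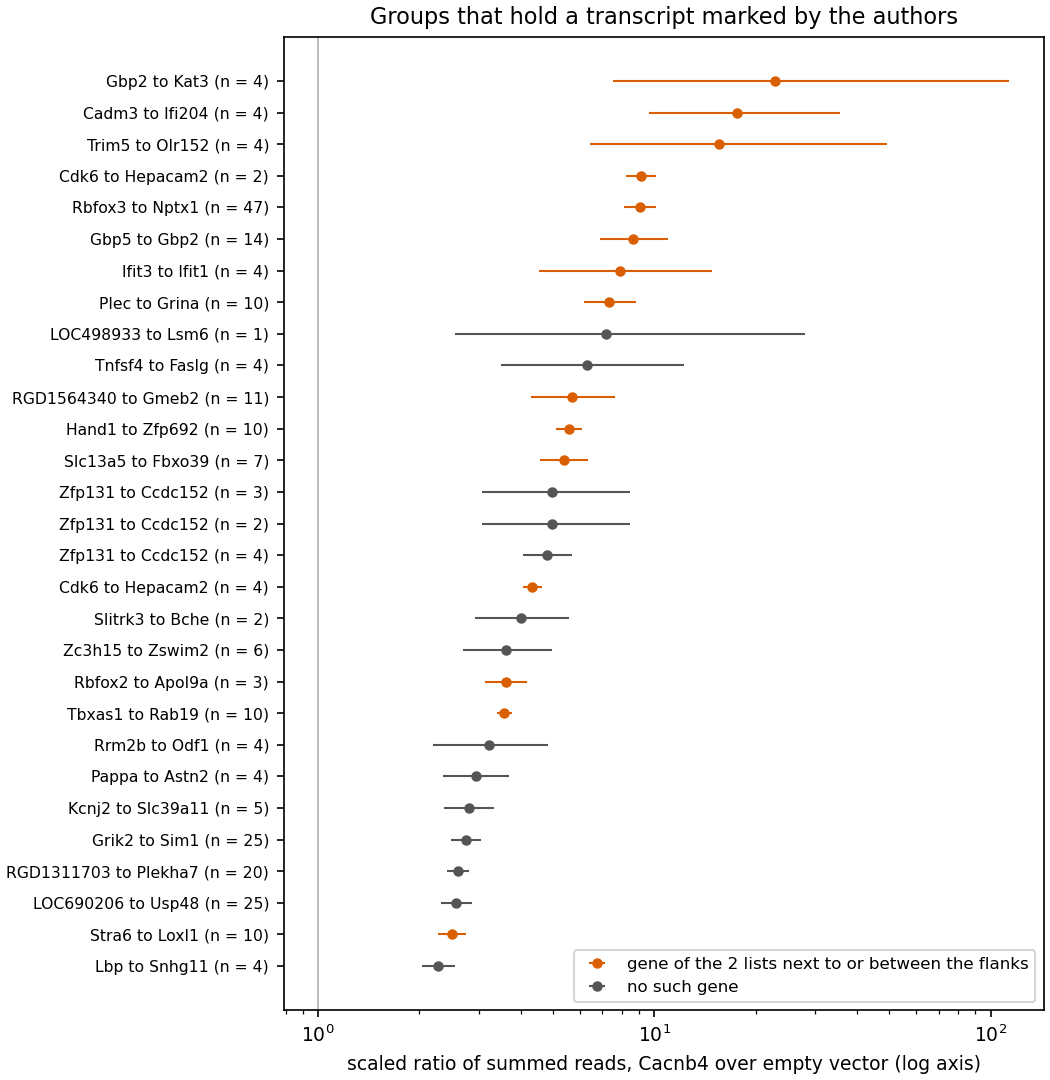
Scaled ratio of summed reads, Cacnb4 over empty vector (x axis, log scale), for 29 of the 30 groups that hold a member marked in the authors' deposited table, named by their flanking genes with the number of members. Bars are 95% exact binomial intervals of counting error; groups with a listed gene (orange) run from 2.49 to 22.9 and groups without (grey) from 2.28 to 7.2, and the group between Anxa10 and Cbr4 is left out because its only member is listed at 0 with empty vector.

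Members with no other member within 100 kb formed the largest class, 474. The 5 with the highest log2 ratio lay between Ube2cbp and Pgm3, Pcnx and Sipa1l1, Shisa3 and Slc30a9, Pdzd8 and Emx2, and Arl2 and Gpha2, on chromosomes 8, 6, 14, 1 and 1. They had 11, 10, 10, 11 and 14 reads with Cacnb4, and each was listed at 0 with empty vector. They were 3.40-fold, 3.09-fold, 3.09-fold, 3.40-fold and 4.33-fold higher when 3 reads are taken as the floor of the empty vector library. With counting error, the lower ends of their intervals were 2.33, 2.08, 2.08, 2.33 and 3.08. None of the 5 is marked in the authors' deposited table. Their log2 ratios, 3.57 to 5.51, depend on the pseudocount of 1 and on transcript length.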

How the data were processed

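RNA of 2 H9c2 libraries, 1 with the Cacnb4 plasmid and 1 with empty vector, was sequenced. Reads were aligned with TopHat 1.4.1 to rn4, as listed in the submitters' processing notes. FPKM per transcript were deposited by the authors with a p-value, a q-value and a significance mark, beside counts of raw, mappable and unmapped reads per library. Which program made these levels was not given in the sources used here. Nothing in the labels states whether strand was kept.

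Members and lists were chosen with earlier results of these data known. Ratios are log2((FPKM + 1)/(FPKM + 1)), Cacnb4 over empty vector. Members within 100 kb were joined, and flanks were matched to RefSeq (GRCr8) by symbol and gene order where they lay within 1 Mb of each other. Of 16783 named symbols, 16315 matched. Named in full were the 10 groups with most members (of 5 groups tied at 10 members, the 3 with the highest summed Cacnb4 level are among them and 2 are not), the 5 lone members with the highest ratio, and the 5 rows on either side of the threshold, each group with its flanking genes and the RefSeq genes between them. All others were named after their values were seen.

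Reads were worked back from FPKM with an effective length that averages over fragments of 12 to 440 bases, normally distributed with mean 200 and SD 80. These constants were chosen after the values were seen. Under them 95.2% of values of unnamed rows with Cacnb4 and 95.3% with empty vector came within 0.02 of a whole read, with scales of 12853152 and 11933161 reads. Reads that were not whole are estimates, and they were rounded for print and for the intervals. Ratios of reads were divided by these scales, with Clopper-Pearson intervals that cover counting error only. The fragment lengths used to work back reads were not tested on data other than those they were chosen from. Rows with a date in place of a gene name (17), the pathway tables and the list of significant rows only were not used. Alternatives changed the pseudocount, minimum, length, joining distance, scaling and q-value. Python 3.11.15, numpy 2.4.6, pandas 2.3.3 and scipy 1.17.1 were used.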

Additional observations from a re-analysis of the deposited data

How the results depend on the processing

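Most counts stayed within 1.5 times of those reported when the pseudocount, minimum level, joining distance or scaling was changed. With only loci over 300 bases, 250 members remained, of which 59 are marked in the authors' deposited table, in 172 groups, 9 of them next to a listed gene, and 132 rows were past 2-fold lower. With 20 or more reads in the higher library, an alternative added after seeing the data, there were 413 members in 187 groups and 128 lower rows. A q below 0.01 in the authors' deposited table left 72 marked members. Joining within 10 kb gave 28 groups with a listed gene between their flanks. A pseudocount of 5 gave 434 lower rows. Using the nearest named gene that matches RefSeq as the flank, also added after seeing the data, left both counts of groups with a listed gene at 15 and 18. No paired analysis was possible because each condition has 1 library, and for the same reason none could be left out. Depth is a limit for many members, since 832 of 1245 have under 20 reads with Cacnb4.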
